A study of Mus musculus with 97 samples.

Results

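Micrococcal nuclease (MNase) profiles at enzyme concentration 16 were compared between mouse embryonic stem cells in mitosis and in interphase. The members were 6 of the 97 samples of the series, 3 libraries of mitotic cells and 3 of interphase cells, chosen by their labels for assay, concentration and cell-cycle state. The libraries called interphase here have A in their titles and I as their labelled cell-cycle state, and no sorting of these cells by stage is described. The cells were E14tg2a, an established embryonic stem cell line labelled Tg2a, grown in serum and LIF. Mitotic cells had been held in nocodazole at 50 ng/ml for 4 to 5 h, shaken off and passed through a 10 µm filter, and interphase cells were untreated, trypsinised and harvested alongside. The comparison therefore also sets drug-treated, shaken-off cells against untreated, trypsinised cells, and these differences cannot be told apart from the cell-cycle state. The labels give the enzyme concentration without a unit and name no agent, allele or transgene for either state beyond these. Beside them stand mitotic and interphase libraries of the same cells at concentrations 0.5 and 128 (3 per state each), and MNaseH3 libraries at 16 (2 per state), in which chromatin fixed with an agent labelled FA was also selected with an antibody to histone H3. No marker of cell identity or of mitosis could be checked, because the values are averages over sites and carry no gene.

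The authors deposited 1 averaged profile per state for each set of sites, so the 3 libraries of a state are already merged. Each profile holds 2001 values, 1 for each base pair from -1000 to 1000 around the centre of the sites. At concentration 16 there were 28 profiles of the 188 in the table, made of 7 combinations of site class and centre, 2 states and 2 kinds of value. The first kind, named midpoint, scatters from base to base, and the second, named gp_mean, is a smooth line through it. Neither the scale nor the read depth is given in the sources used here, so profile values are printed multiplied by 10000 and carry no counting interval. No value can be given a replicate error and no test between the states was possible, so every difference here describes 1 merged profile against another.

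MNase cuts the linker DNA between nucleosomes and spares DNA wrapped on histones, so the fragments left mark where nucleosomes sit. Around a bound regulator or an active promoter, nucleosomes of many cells line up at regular distances from one fixed point, and an averaged profile then shows a row of peaks called a nucleosome array. Many transcription factors are reported to leave chromatin in mitosis. Some stay at part of their sites, which is called mitotic bookmarking, and the orphan nuclear receptor Esrrb is known for this in mouse embryonic stem cells. The site classes in the table cover transcription start sites (TSS), summits of the acetyltransferase and enhancer coactivator EP300, Esrrb sites named Esrrb_Book and Esrrb_Lost, and sites of the pluripotency factors Oct4 and Sox2. Esrrb_Book stands in this study's vocabulary for sites that keep Esrrb in mitosis, and Esrrb_Lost for sites that do not. The number of sites in each class and their positions in the genome were not used here.

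**Figure D1:**
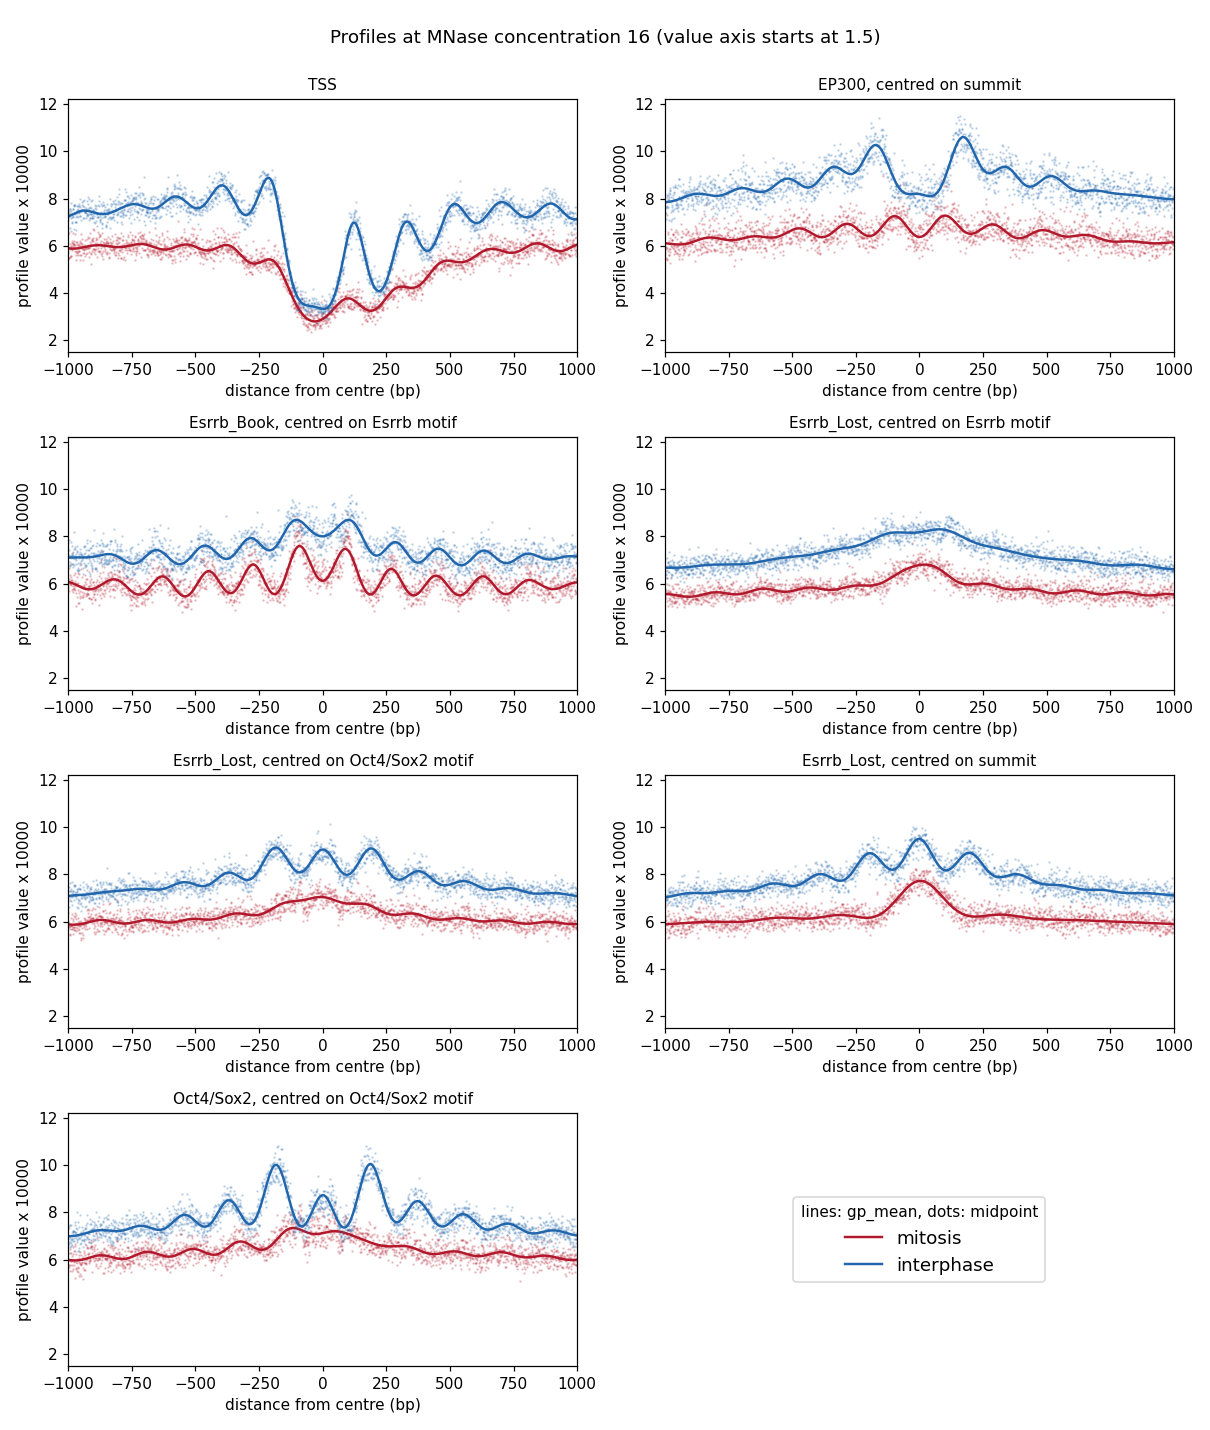
Profiles at MNase concentration 16 for the 7 combinations of site class and centre, with mitosis in red and interphase in blue; lines are gp_mean, dots are midpoint, and the value axis starts at 1.5. The mitotic line lies below the interphase line in every panel, the row of peaks is flatter in mitosis at TSS and at Oct4/Sox2 sites, and it is taller in mitosis at Esrrb_Book.

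Levels were lower in mitosis in all 7 profiles. The mean level of gp_mean was 5.16 in mitosis and 6.87 in interphase at TSS. At EP300 summits the means were 6.49 in mitosis and 8.68 in interphase, and at Esrrb_Book they were 6.10 in mitosis and 7.41 in interphase. These gaps amount to 24.9% at TSS, 25.2% at EP300 and 17.8% at Esrrb_Book. Esrrb_Lost sites had means of 5.83 in mitosis and 7.27 in interphase around the Esrrb motif. The same class averaged 6.25 in mitosis and 7.79 in interphase around the Oct4/Sox2 motif, and 6.25 in mitosis and 7.80 in interphase around the summit. Oct4/Sox2 sites averaged 6.44 in mitosis and 7.80 in interphase. The ratio of mitosis over interphase thus ran from 0.748 to 0.825, with a median of 0.802. Mitosis lay above interphase at 0 of 14007 positions of the 7 profiles, 0% of them, so being lower in mitosis held for the whole windows, flanks included. With midpoint values smoothed over 25 bp it lay above at 13 positions. How the authors scaled the libraries is not stated, so whether the levels of the states share 1 scale cannot be told. Levels and amplitudes in profile units, also given below, depend on that scale. Percents of a profile's own mean, ratios to its own flank, distances and offsets do not, provided the scale has a true zero. They can still depend on the lengths of the fragments averaged in each state, which are not given in the sources used here, and the part of fragment length in levels, peak distances and offsets was not tested.

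The row of peaks differed between the states in different ways at different sites. Array amplitude, the standard deviation of gp_mean after a running mean of about 1 nucleosome repeat was taken off, was lower in mitosis in 5 of the 7 profiles and higher in 2. Given as a percent of each profile's own mean, it was 3.41% in mitosis and 8.13% in interphase at TSS, and 1.57% in mitosis and 5.87% in interphase at Oct4/Sox2 sites. Around the Oct4/Sox2 motif of Esrrb_Lost sites it was 0.885% in mitosis and 2.94% in interphase, and around their summit 1.29% in mitosis and 2.53% in interphase. The summit value turned on the running mean: over about 2 repeats the amplitude in profile units was 0.227 in mitosis and 0.253 in interphase, nearly equal, against 0.081 in mitosis and 0.198 in interphase over 1. EP300 summits were closer over 1 repeat, with 2.56% in mitosis and 3.10% in interphase. In profile units their amplitude was 0.166 in mitosis and 0.269 in interphase over 1 repeat. Over about 2 repeats it was 0.194 in mitosis and 0.460 in interphase, a wider gap. Esrrb_Book went the other way, with 6.48% in mitosis and 3.35% in interphase, and had the tallest array of the 7 mitotic profiles. The Esrrb motif of Esrrb_Lost sites had nearly no array in either state, at 1.09% in mitosis and 0.440% in interphase, and the direction turned with midpoint values (0.978 for mitosis over interphase). The scatter of midpoint about gp_mean per base pair was 4.44% to 6.27% of the mean in mitosis and 3.57% to 5.16% in interphase. Scatter of neighbouring base pairs was nearly independent, with correlations of -0.034 to 0.122 in mitosis and 0.018 to 0.094 in interphase.

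**Figure D2:**
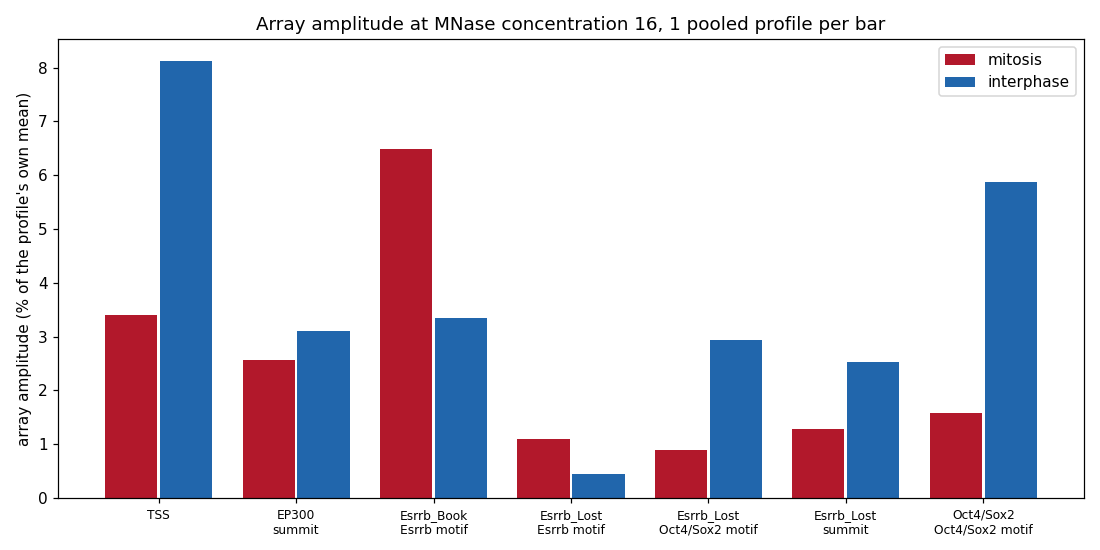
Array amplitude in percent of each profile's own mean for the 7 profiles at MNase concentration 16, mitosis in red to the left and interphase in blue to the right; each bar is 1 merged profile and has no error bar. Only Esrrb_Book (6.48% against 3.35%) and the Esrrb motif of Esrrb_Lost sites (1.09% against 0.440%) have the taller bar in mitosis.

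After each profile was divided by its own mean, so that only shape is left, 532 of the 14007 positions were at least 1.1-fold higher in mitosis (3.80%) and 867 were at least 1.1-fold lower (6.19%). TSS held 282 of the higher and 284 of the lower positions, Oct4/Sox2 sites held 135 and 167, and EP300 summits held 115 and 156. The 3 centres of Esrrb_Lost and Esrrb_Book had no position past this limit upward. Downward, Esrrb_Book had 67 positions, Esrrb_Lost had 37 around the Oct4/Sox2 motif and 156 around the summit, and none around the Esrrb motif. The positions lay close to the centre outside TSS, within 239 bp of it.

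**Figure D3:**
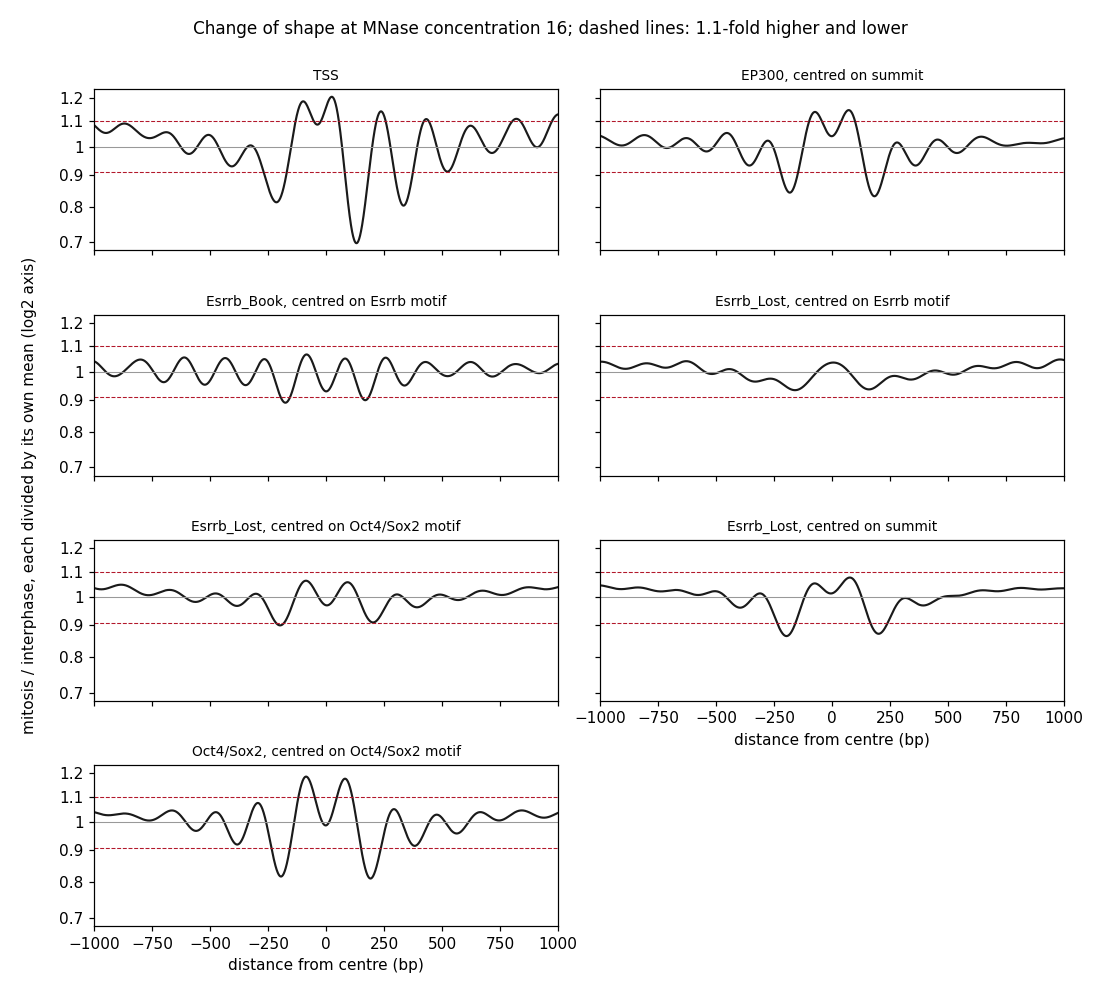
Ratio of mitosis over interphase along each profile after division by the profile's own mean, on a log2 axis, with dashed lines at 1.1-fold higher and lower. TSS has the deepest dip, to 0.698 at 131 bp downstream; EP300 and Oct4/Sox2 share a pattern of a raised pair of humps near the centre between 2 dips, and the Esrrb motif of Esrrb_Lost sites stays inside the limits.

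TSS are where RNA polymerase II begins transcription, and active ones carry a nucleosome-depleted region flanked by ordered nucleosomes, the first one downstream being known as the +1 nucleosome. The depleted region was present in mitosis, while the peaks around it had much less contrast. The lowest level was 2.79 at -31 bp in mitosis and 3.32 at 3 bp in interphase. Set against the mean beyond 750 bp on either side, called the flank here, this floor was 0.471 of the flank in mitosis and 0.446 in interphase. The centre itself therefore had nearly the same relative depth in both states. Within 50 bp of the TSS the mean was 0.501 of the flank in mitosis and 0.464 in interphase.

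The first peak downstream of the TSS stood 100 bp away at a level of 3.77 in mitosis, and 123 bp away at 6.98 in interphase. Heights over troughs are taken against the mean of the troughs on both sides of a peak. On a sloping profile they therefore include the slope. This first peak stood 24.8% over its troughs in mitosis and 88.6% in interphase. The +1 position thus had much less contrast in mitosis, and at 131 bp the ratio of mitosis over interphase reached 0.524, the lowest at any of the 14007 positions. The second downstream peak had 4.27 at 310 bp in mitosis and 7.03 at 331 bp in interphase, and the next had 5.37 at 490 bp in mitosis and 7.77 at 519 bp in interphase. Each of these 3 peaks lay nearer to the TSS in mitosis. In mitosis the level climbed gradually over the first 500 bp. At the first peak it was at 0.635 of the flank in mitosis and already at 0.937 in interphase. The gap was smaller at concentration 0.5, where this peak stood at 0.578 of the flank in mitosis and 0.648 in interphase. As the mean of both sides at 128, first peaks stood at 1.00 of the flank in mitosis and 1.25 in interphase.

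The depleted zone was wider in mitosis. The unbroken stretch around the floor below the level midway between floor and flank was 525 bp in mitosis, from -140 to 384 bp, and 218 bp in interphase, from -138 to 79 bp. Counting the trough behind the first interphase peak too, 525 bp in mitosis and 323 bp in interphase lay below this level, the last at 384 bp in mitosis and at 274 bp in interphase. The upstream edge differed by only 2 bp, so the added width was all downstream. This width turns on whether the first downstream peak crosses the midway level, which is 4.37 in mitosis and 5.38 in interphase. Neither of the first 2 peaks crossed it in mitosis, and the first peak did in interphase.

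Upstream of the TSS the first peak was at 211 bp with 5.42 in mitosis and at 213 bp with 8.88 in interphase. In mitosis this was 0.913 of the flank, and in interphase it was the highest point of the profile, 1.19 times the flank. The second upstream peak was at 380 bp with 6.03 in mitosis and at 397 bp with 8.56 in interphase. The slope of distance on peak number over all 5 upstream peaks gave a spacing of 168 ± 1.7 bp in mitosis and 179 ± 2.3 bp in interphase (regression SE, 5 peaks each). Downstream it gave 184 ± 3.9 bp in mitosis and 192 ± 2.3 bp in interphase (regression SE, 5 peaks each). These errors measure how straight the row of peaks is, not how it varies between libraries. Array amplitude within 450 bp downstream was 3.82% of the mean in mitosis and 12.1% in interphase, and from there to 900 bp it was 2.32% in mitosis and 4.45% in interphase.

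EP300 acetylates histones at active enhancers, and its summits mark their centres. With the running mean over about 1 repeat, the array here had 0.826 of the interphase relative amplitude in mitosis, and less over about 2 repeats. It also stood in another place. In mitosis the first peaks were 98 bp upstream at 7.26 and 101 bp downstream at 7.28. In interphase they were 172 bp away on both sides, at 10.3 upstream and 10.6 downstream. The mitotic pair was thus closer to the summit on both sides and enclosed a dip of 6.37 at the summit, while the interphase pair enclosed a broad floor with its lowest point nearby of 8.09 at 41 bp. First peaks stood 13.3% over their troughs in mitosis and 21.4% in interphase, as the mean of both sides. A weak maximum at -14 bp in interphase rose only 0.704% over its sides. Centre over flank was 1.06 in mitosis and 1.01 in interphase. In MNaseH3 at 16 it was 0.979 in mitosis and 0.627 in interphase, so the interphase centre was much lower in the H3-selected libraries.

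The next peaks at EP300 summits were at 285 bp upstream and 286 bp downstream in mitosis, and at 334 bp on both sides in interphase. Spacing was 180 ± 2.1 bp upstream and 181 ± 3.4 bp downstream in mitosis (5 peaks each), against 175 ± 1.8 bp upstream (5 peaks) and 172 ± 2.7 bp downstream (4 peaks) in interphase. The detrended profiles were opposed in place, with a correlation across positions of -0.42 upstream and -0.30 downstream (908 positions each), and moving the mitotic profile gave 0.94 and 0.91. The best offset was -63 bp upstream and -61 bp downstream, where a negative offset means nearer to the centre in mitosis. Positions share the same sites and libraries, so these correlations only describe the curves. The dips of the shape ratio lay at the interphase peaks, with 0.843 at -183 bp and 0.831 at 182 bp, and its highest values at 1.14 and 1.15 lay at -74 and 71 bp.

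Esrrb_Book sites, centred on the Esrrb motif, carried the most regular row of nucleosomes in mitosis. The first peaks were 91 bp upstream at 7.60 and 88 bp downstream at 7.48 in mitosis, and 103 bp upstream at 8.71 and 101 bp downstream at 8.70 in interphase. They stood 30.0% and 28.1% over their troughs in mitosis, and 12.9% and 14.5% in interphase. The next peaks of both sides behaved alike. The second pair stood 22.1% and 20.0% in mitosis and 9.73% and 10.2% in interphase, and the third pair stood 18.1% and 15.1% in mitosis and 9.75% and 9.47% in interphase. All 6 of these peaks of this class therefore had more contrast in mitosis, although their levels as deposited were lower.

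At the Esrrb motif itself the trough was 6.12 in mitosis and 8.01 in interphase, which is 1.03 times the flank in mitosis and 1.12 times in interphase. The ratio of mitosis over interphase was lowest at -176 bp, between the first and second upstream peaks, at 0.733, and highest at -85 bp, beside the first upstream peak, at 0.878. Peaks were thus closer to the interphase level than troughs were. Spacing was 182 ± 1.6 bp upstream and 181 ± 0.79 bp downstream in mitosis (5 peaks each), against 176 ± 4.9 bp upstream and 175 ± 1.3 bp downstream in interphase (6 peaks each). The interphase value upstream includes a sixth maximum close behind the fifth, and with peaks at least 140 bp apart it was 185 bp, above mitosis.

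The array at Esrrb_Book was taller in mitosis both near to and far from the motif. Its amplitude from 450 to 900 bp upstream was 4.50% of the mean in mitosis and 2.67% in interphase, and downstream 4.06% in mitosis and 2.64% in interphase. Closer than 450 bp it was 8.48% in mitosis and 3.81% in interphase upstream, and 7.80% in mitosis and 4.10% in interphase downstream. In relation to its height near the motif, the mitotic array faded more with distance than the interphase array, whose far values were closer to its near values. The states were nearly in register, with offsets of -16 bp upstream and -13 bp downstream and correlations across positions of 0.84 and 0.86 without any shift.

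**Figure D4:**
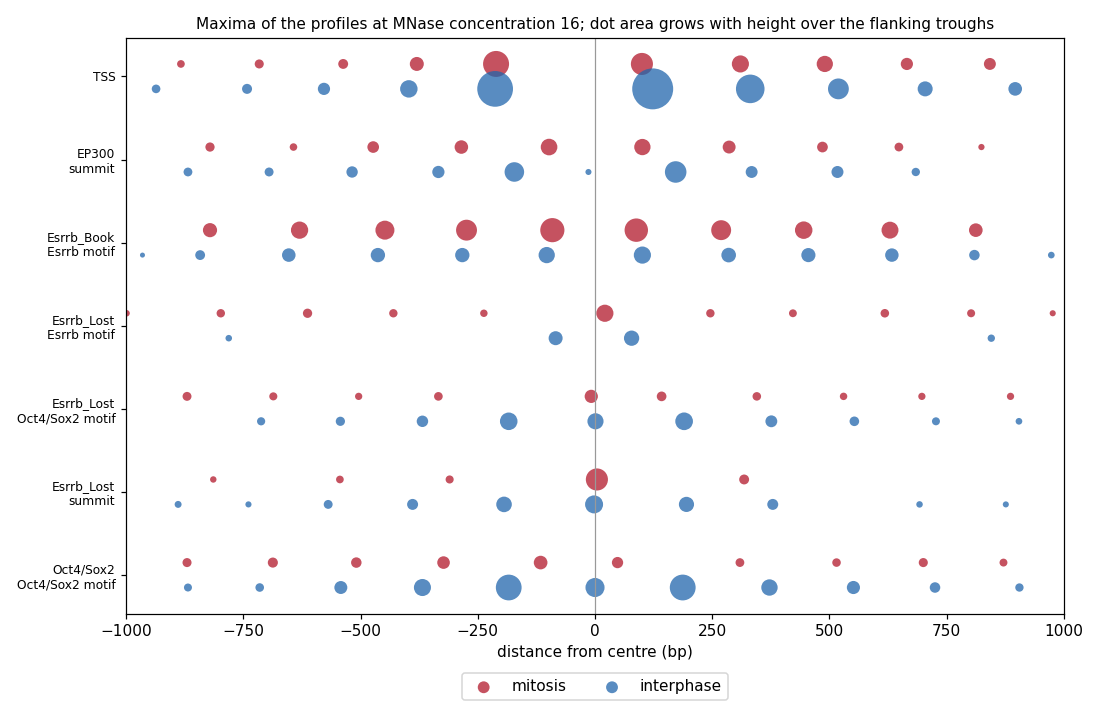
Maxima of gp_mean at MNase concentration 16 along the distance from the centre, mitosis in red above interphase in blue for each profile; dot area grows with the height of a maximum over the troughs beside it. At EP300 summits the first pair lies at 98 and 101 bp in mitosis and at 172 bp in interphase, and at Esrrb_Book the mitotic dots are larger than the interphase dots beside them.

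Esrrb_Lost sites were given around 3 centres, and whether these profiles are averages over the same sites is not stated. The counts over 7 profiles or 14 sides include all 3 centres, which may repeat the same sites. Around the Esrrb motif, mitosis had 1 broad maximum at 21 bp with a level of 6.81, and interphase had a pair at 84 bp upstream with 8.18 and 78 bp downstream with 8.30. In mitosis a faint row followed at 237, 430 and 613 bp upstream and at 246, 422 and 618 bp downstream, each 1.72% to 3.36% over its troughs. The maximum at 237 bp upstream, with 5.93, was barely above its inner trough of 5.92. In interphase the only further maxima were 781 bp upstream and 845 bp downstream. In gp_mean the mitotic row was regular, with a spacing of 189 ± 1.7 bp upstream and 184 ± 2.0 bp downstream (regression SE, 5 peaks each). With midpoint values smoothed over 25 bp, array amplitude around this motif was 0.0893 in mitosis and 0.0913 in interphase. With their scatter also taken out, an alternative chosen after seeing the data, it was 0.0728 in mitosis and 0.0725 in interphase. The row is therefore described for gp_mean only. In the mitotic MNaseH3 profile at 16, maxima stood at mean distances of 259, 431.5 and 613 bp of both sides, against 241.5, 426 and 615.5 bp here. The mitotic profile at 0.5 had 0 outward maxima on either side. That at 128 had 2 per side, at mean distances of 294 and 723 bp, so these 2 digestions did not show the row. Centre over flank was 1.22 in both states.

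Around the Oct4/Sox2 motif of Esrrb_Lost sites, mitosis had a single hump with 7.05 at -8 bp and a shoulder of 6.77 at 142 bp downstream. Interphase had a maximum on the motif with 9.06 at 1 bp and a pair of 9.14 at 184 bp upstream and 9.10 at 190 bp downstream. The mitotic hump stood 8.11% over its troughs and the shoulder 3.77%, whereas the 3 interphase peaks stood 12.7%, 15.3% and 15.5% over theirs. The value for the shoulder is mostly slope, as its inner trough was at 6.76. The flanking pair of interphase had no counterpart of like height in mitosis. Amplitude within 450 bp was 1.03% of the mean in mitosis and 3.98% in interphase upstream, and 1.02% in mitosis and 4.13% in interphase downstream.

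Around the summit of Esrrb_Lost sites both states had a maximum at the centre, 7.73 at 4 bp in mitosis and 9.51 at -2 bp in interphase. It stood 24.9% over its troughs in mitosis and 16.1% in interphase, and centre over flank was 1.28 in mitosis and 1.29 in interphase. A maximum over the summit was thus present in both. The neighbours differed, since mitosis had no maximum nearer than 310 bp upstream and 318 bp downstream, with 6.29 and 6.30, and interphase had peaks of 8.90 at 194 bp upstream and 8.92 at 195 bp downstream. From 450 to 900 bp the amplitude was 0.280% of the mean in mitosis and 0.789% in interphase upstream, and 0.114% in mitosis and 0.394% in interphase downstream. With so little array in mitosis, the offset of the states at this centre (55 bp upstream and 61 bp downstream, correlations 0.43 and 0.52) describes curves that are little alike.

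Oct4 and Sox2 bind a joint motif at enhancers of the pluripotency network. Around it, mitosis showed a low and lopsided array, and interphase showed its tallest array outside TSS. Mitosis had its highest maximum of 7.34 at 116 bp upstream, a second of 7.20 at 48 bp downstream, and its next downstream maximum of 6.58 at 309 bp. These mitotic maxima stood 8.74%, 5.56% and 2.87% over their troughs. The last of them was barely above its inner trough of 6.56. Interphase had 8.73 on the motif at 0 bp and flanking peaks of 10.0 upstream and 10.1 downstream at a mean distance of 185.5 bp, which stood 34.3% and 34.5% over their troughs. On the motif, within 50 bp, centre over flank was 1.17 in both states, but mitosis had a shallow dip of 7.09 at 29 bp upstream, and interphase had a peak on the motif beside a trough of 7.41 at 82 bp upstream.

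The level of mitosis came closest to that of interphase at Oct4/Sox2 sites, with a ratio of 0.979 at -87 bp, where interphase has its trough. At 191 bp, on the interphase peak, the ratio was 0.669. Amplitude within 450 bp was 2.51% of the mean in mitosis and 8.08% in interphase upstream, and 0.916% in mitosis and 7.99% in interphase downstream. The 2 sides were thus unlike in mitosis and alike in interphase. Spacing over the outer peaks was 187.2 ± 3.1 bp upstream (5 peaks) and 187.1 ± 5.6 bp downstream (4 peaks) in mitosis, against 172 ± 3.2 bp upstream and 179 ± 1.0 bp downstream in interphase (5 peaks each). Best offsets were -49 bp upstream with a correlation of 0.83 and -60 bp downstream with a correlation of 0.28, so the downstream offset is poorly defined.

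The best offset was negative on 12 of the 14 sides and positive on both sides of the Esrrb_Lost summit, but this count includes sides with little array. The Esrrb motif of Esrrb_Lost sites gave -97 bp upstream with a correlation of 0.53, close to the 100 bp limit of the search, where the sign of a repeating curve is ambiguous. At Oct4/Sox2 sites and the Oct4/Sox2 motif of Esrrb_Lost sites the first outward maxima did not lie nearer on both sides in mitosis. For Oct4/Sox2 sites this turned on the 50 bp limit, as the mitotic maximum at 48 bp downstream was counted as central. Counted as outward, it and the maximum at 116 bp upstream lay nearer than the interphase pair, at a mean distance of 185.5 bp. The offsets were better defined where the curves matched. At TSS the offset was -23 bp upstream and -35 bp downstream, with correlations of 0.93 on both sides. The offsets with a correlation above 0.9 were those of TSS, EP300 and Esrrb_Book. On these 6 sides they span -13 to -63 bp, nearer to the centre in mitosis within the 100 bp searched. At EP300 summits an outward offset past 100 bp could also bring the peaks of a repeating curve together, and it was not searched. Spacing could be compared on 11 sides and was wider in mitosis on 9, but this count did not hold under other settings, as the midpoint values gave 5 of 14 sides. No direction of spacing is therefore reported beyond the single values above.

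The other digestions put these values in context. At concentration 0.5 the mean level was higher in mitosis in all 7 profiles, with ratios of mitosis over interphase from 1.24 to 1.296, whereas at 128 it was lower in all 7, from 0.752 to 0.822. In the libraries labelled MNaseH3 at concentration 16, the ratio ran from 0.998 to 1.04. The lower level of mitosis at concentration 16 was therefore not shared by all digestions. At TSS the means were 6.02 in mitosis and 4.83 in interphase at 0.5, 5.16 in mitosis and 6.87 in interphase at 16, and 1.92 in mitosis and 2.56 in interphase at 128. Within 50 bp of the centre, the ratio of mitosis over interphase ran from 0.790 to 0.861 in MNase at 16. In MNaseH3 at 16 it ran from 1.02 to 1.53, above 1 in all 7 profiles. Centre over flank at TSS was 0.410 in mitosis and 0.296 in interphase in MNaseH3 at 16. In MNase it was 0.469 in mitosis and 0.447 in interphase at 0.5, and 0.738 in mitosis and 0.544 in interphase at 128. The near equality of depth at 16 was therefore not shared by all digestions.

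Relative array amplitude kept its direction better across digestions. At TSS it was 2.92% in mitosis and 5.84% in interphase at 0.5, 3.47% in mitosis and 9.16% in interphase at 128, and 2.11% in mitosis and 6.24% in interphase in MNaseH3 at 16. At Esrrb_Book it was 5.72% in mitosis and 3.26% in interphase at 0.5, 6.06% in mitosis and 1.97% in interphase at 128, and 6.17% in mitosis and 2.65% in interphase in MNaseH3 at 16. A lower array in mitosis at TSS and a higher one at Esrrb_Book thus stood in all 4 digestions shown. Oct4/Sox2 sites had 2.05% in mitosis and 5.75% in interphase at 0.5, 2.92% in mitosis and 5.21% in interphase at 128, and 1.53% in mitosis and 5.93% in interphase in MNaseH3 at 16.

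The place of the first peaks at EP300 summits varied with the digestion in mitosis. Their mean distance from the summit in mitosis was 146.5 bp at 0.5, 99.5 bp at 16 and 106 bp in MNaseH3 at 16. At 128 the mitotic profile was raised over the summit, with centre over flank at 1.34 in mitosis and 1.03 in interphase. Its highest value of 2.69 lay 51 bp downstream, just outside the 50 bp taken as the centre, and its first upstream maximum was at 265 bp. No mean distance is therefore given for mitosis at 128. In interphase the mean distance was 176.5 bp at 0.5, 172 bp at 16 and 165 bp at 128, and 175 bp in MNaseH3 at 16, a narrower range. At Esrrb_Book the distances were 87.5 bp at 0.5, 89.5 bp at 16 and 82.5 bp at 128 in mitosis, and 87.5, 102 and 81.5 bp in interphase. The width of the depleted zone at TSS was 557 bp in mitosis and 457 bp in interphase at 0.5, and 144 bp in mitosis and 186 bp in interphase at 128. The wide gap in width between the states at 16 was therefore not seen at these concentrations. In MNaseH3 at 16 the widths were 572 bp in mitosis and 611 bp in interphase.

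**Figure D5:**
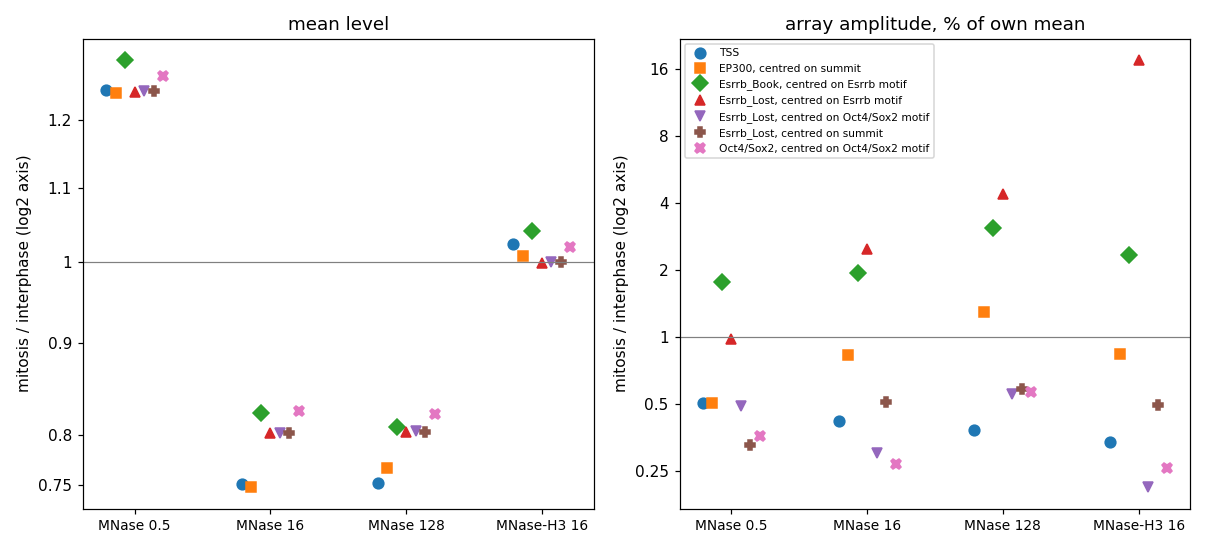
Ratio of mitosis over interphase on a log2 axis for the mean level (left) and for array amplitude in percent of the profile's own mean (right), with 1 point for each of the 7 profiles in each of 4 digestions. Mean levels lie between 0.748 and 0.825 at MNase 16 and between 1.24 and 1.296 at MNase 0.5, while Esrrb_Book lies above 1 and TSS below 1 for array amplitude in every column.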

How the data were processed

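Per the labels, chromatin of mitotic and interphase cells was digested with MNase and sequenced, with 3 libraries per state at concentration 16. The authors deposited averaged profiles in an unnamed unit, treated here as a score on an unstated scale with a true zero. How midpoint and gp_mean were computed and scaled, the depth and the number of sites are not given in the sources used here. The submitters' processing notes name Bowtie2, MACS2, RSEM, STAR and the mm9 build, without versions or roles.

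From the deposited values, multiplied by 10000, were computed the mean, the level within 50 bp of the centre over that of the flanks (beyond 750 bp), array amplitude, local maxima at least 100 bp apart, their spacing where a side had 3 or more, and the offset of best correlation within 100 bp. Near and far parts of an array were split at 450 bp. Maxima within 50 bp of the centre were counted as central, and not as outward maxima of a side. Every site class and centre is described, and the first 3 maxima of each side and the nearest trough are named. Spacing, offset and array amplitude were checked on simulated symmetric profiles, with limits set only for those without noise. Offsets as large as those at EP300 were not simulated. Centre over flank and the width of the depleted zone were not checked in this way. Python 3.11.15, numpy 2.4.6, scipy 1.17.1 and matplotlib 3.10.9 were used. Alternatives were midpoint values smoothed over 25 bp, other windows, a peak distance of 140 bp and an offset limit of 50 bp. The members and measures were chosen with earlier results of these data known. RNA-seq files were left out.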

Additional observations from a re-analysis of the deposited data

Results flagged for a closer look

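The mean level differed between the states in opposite directions at 2 enzyme concentrations. The median ratio of mitosis over interphase over the 7 profiles was 1.25 at concentration 0.5 and 0.802 at concentration 16, and all 7 profiles lay on the same side at each. The difference was not tested, since each state has 1 merged profile per concentration.

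Relative array amplitude at EP300 summits had a ratio of mitosis over interphase of 0.505 at concentration 0.5, 0.826 at 16 and 1.30 at 128, and of 0.836 in MNaseH3 at 16. At the Esrrb motif of Esrrb_Lost sites the ratio was 0.979 at concentration 0.5, 2.47 at 16 and 4.35 at 128, and 17.4 in MNaseH3 at 16. The amplitudes were 1.09% of the mean in mitosis and 0.440% in interphase at 16. In MNaseH3 at 16 they were 1.25% in mitosis and 0.0714% in interphase. The ratio of 17.4 thus divides by the amplitude of a nearly flat interphase profile. Neither difference was tested.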

How the results depend on the processing

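The counts of profiles lower in mitosis held under every alternative within 1.5 times: 7 of 7 for the mean level, 5 or 6 of 7 for array amplitude, and 2 to 4 of 7 for centre over flank (3 with the main windows). The sign of the offset was negative on 12 of 14 sides under all 3 alternatives, but its size was not stable on all. With the search limited to 50 bp, 7 sides lay at the limit, both sides of EP300 among them, and with a running mean over 2 repeats 2 sides lay at -100 bp. The upstream offset at the Esrrb motif of Esrrb_Lost was -97 bp and became -32 bp with midpoint values. The TSS and Esrrb_Book offsets moved by 10 bp or less. Spacing was wider in mitosis on 9 of 11 sides, on 8 with peaks 140 bp apart, and on 5 of 14 with midpoint values. Mitosis lay above interphase at 0 positions with gp_mean and at 13 with smoothed midpoint, an alternative chosen after seeing the data. Of 127 single values recomputed, 13 changed direction and 39 moved without changing it. Centre over flank, mitosis over interphase, became 0.997 with midpoint values and 0.984 within 100 bp at the Esrrb motif of Esrrb_Lost, 1.01 within 100 bp and 1.003 with flanks from 500 bp at its summit, and 0.975 within 25 bp at Oct4/Sox2. Array amplitude, mitosis over interphase, at the Esrrb motif of Esrrb_Lost became 0.978 with midpoint values and 1.005 with their scatter also taken out. Amplitude in profile units, mitosis over interphase, moved to 0.897 from 0.408 at the summit of Esrrb_Lost with a running mean over 2 repeats, and to 0.424 from 0.241 at its Oct4/Sox2 motif with midpoint values. At EP300 summits it moved to 0.423 from 0.618 with a running mean over 2 repeats. Spacing, mitosis minus interphase, with midpoint values became -6.93 bp upstream and -9.25 bp downstream at EP300, -2.57 and -24.95 bp at the Oct4/Sox2 motif of Esrrb_Lost, and -25.4 and -37.3 bp at Oct4/Sox2. With peaks 140 bp apart it became -3.20 bp upstream at Esrrb_Book. The cause was not tested. No paired analysis was possible because the libraries of a state are merged, which also prevents leaving one out. Depth is unknown.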
